A study of Mus musculus with 8 samples.

Results

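The genes described here encode the mitochondrial ribosomal proteins, in the pineal gland of the mouse, measured in wild type and 5xFAD animals. They were chosen by name alone, as the protein-coding rows of the deposited expression table whose symbol starts with Mrpl or Mrps and a number. The rule found 77 genes among 21980 protein-coding genes, and all 77 had a mean of at least 1 FPKM, the level above which 13094 protein-coding genes were tested. FPKM is a fragment count scaled to the length of the transcript and to the size of the library, so levels can be set side by side between genes. The same name pattern also matches 5 pseudogenes, which were left out. No gene of the set was at 0 in any library. By the place of their proteins in the known structure, 50 of the genes belong to the large subunit and 26 to the small subunit, and Mrps36 is not a ribosomal protein in spite of its name. A counterpart in bacterial ribosomes is known for 45 of the proteins, and 31 are specific to mitochondria. Mrps18a and Mrps18b, though related to bacterial S18, were counted among the 31, and Mrps18c was counted as its counterpart.

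RNA was sequenced from 8 libraries of whole pineal glands, 4 per genotype, each a pool of glands from 5 to 7 male mice aged 5 months. All glands were taken at zeitgeber time 0.5, that is 0.5 h after lights on, under 12 h of light a day. The 5xFAD mice carried B6.Cg-Tg (APPSwFlLon, PS1*M146L*L286V), transgenes for human amyloid precursor protein with the Swedish, Florida and London changes and human presenilin 1 with M146L and L286V, under the Thy1 promoter, which is active in neurons. The wild type mice were C57BL/6 from another supplier, so genotype and supplier cannot be told apart, and the transgene RNA was not analysed here. The libraries are called by their labels: Normal-11, Normal-21, Normal-22 and Normal-23 for wild type, and 5xFAD-1 to 5xFAD-3 with 5xFAD-21 for the transgenic mice. Where values of all 8 libraries are listed, they stand in this order within each genotype.

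Mitochondria keep their own ribosome, which translates the few messenger RNAs of the mitochondrial genome into membrane subunits of the respiratory chain and ATP synthase. All of its proteins are encoded in the nucleus, made in the cytosol and imported, and they assemble on ribosomal RNAs transcribed from mitochondrial DNA. Pinealocytes, the melatonin-secreting cells of the pineal gland, are rich in mitochondria.

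Genes for mitochondrial proteins often share promoter elements for NRF1, for ETS factors such as GABP and for YY1, so the promoters are shown first. RefSeq promoter windows on GRCm38.p6, from 250 bases before to 50 bases after the annotated start, were found for 68 of the 77 genes and gave 74 windows. The letters CGCANGCG (NRF1) stood on either strand in 20 of these windows, 27.03%, against 8.21% of 32851 promoters in the RefSeq table and 16.3% of the windows of the genes tested. The letters CCGGAAG (ETS) stood in 25 windows, 33.8%, against 8.86% and 16.2%. The letters AAGATGG (YY1) stood in 13 windows, 17.6%, against 6.34% and 6.72%. At least one of these motifs was in 43 windows, 58.1%, against 20.8% of all promoters and 33.7% of those of the genes tested. A TATA box, TATAAA, was in 5 windows, 6.76%, against 13.6% and 7.28%. The median GC content of the windows was 58.5%, and that of the windows of all genes tested was 60.7%. A match of letters is a description and does not show that a factor binds there. The upstream 250 bases are printed for the genes with the smallest p in the genotype comparison below that hold a motif, each read 5′ to 3′ on the strand of its gene with the matched letters in capitals. Mrps18b lies on the minus strand, and its window is chr17:35916441-35916690, with an NRF1 match that starts 224 bases before the RefSeq start. Mrpl18 is on the minus strand with the window chr17:12916092-12916341 and an ETS match. Mrpl49 is on the minus strand with the window chr19:6057756-6058005, and its capitals mark a YY1 match and then an NRF1 match. Mrpl57 is on the plus strand with the window chr14:57825989-57826238 and an NRF1 match 56 bases before the start.
Mrps18b: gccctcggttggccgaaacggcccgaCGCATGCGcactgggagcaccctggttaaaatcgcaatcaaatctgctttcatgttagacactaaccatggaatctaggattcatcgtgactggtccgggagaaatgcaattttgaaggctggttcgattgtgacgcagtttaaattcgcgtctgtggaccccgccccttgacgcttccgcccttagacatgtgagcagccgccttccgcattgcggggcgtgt
Mrpl18: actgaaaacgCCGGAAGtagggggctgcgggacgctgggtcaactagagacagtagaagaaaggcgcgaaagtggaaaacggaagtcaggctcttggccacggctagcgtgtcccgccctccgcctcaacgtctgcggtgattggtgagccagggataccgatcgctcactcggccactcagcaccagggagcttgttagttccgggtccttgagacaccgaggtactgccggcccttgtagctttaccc
Mrpl49: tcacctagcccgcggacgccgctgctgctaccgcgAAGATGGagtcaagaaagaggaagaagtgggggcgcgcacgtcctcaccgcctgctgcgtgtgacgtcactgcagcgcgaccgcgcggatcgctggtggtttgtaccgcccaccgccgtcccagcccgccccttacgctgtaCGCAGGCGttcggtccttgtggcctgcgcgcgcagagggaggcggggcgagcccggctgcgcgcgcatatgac
Mrpl57: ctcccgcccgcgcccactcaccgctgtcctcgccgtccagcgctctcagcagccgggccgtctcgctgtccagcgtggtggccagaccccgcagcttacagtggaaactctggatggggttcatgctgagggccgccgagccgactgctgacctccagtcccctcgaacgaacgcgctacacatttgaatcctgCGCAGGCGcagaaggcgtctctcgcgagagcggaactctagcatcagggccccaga

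**Figure D1:**
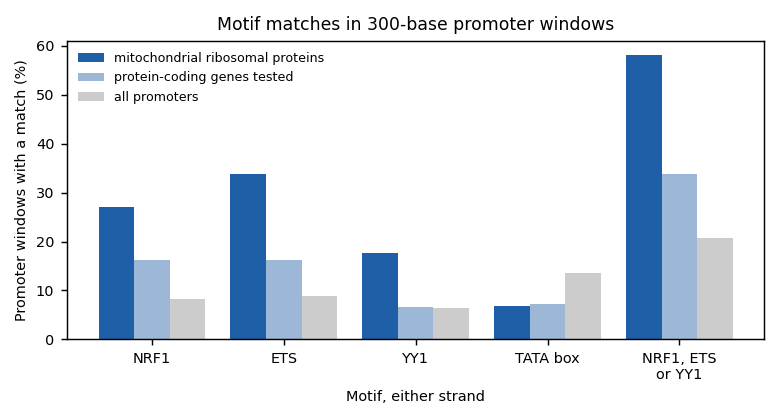
Bars give the share in percent of promoter windows with a match of each motif on either strand, for the mitochondrial ribosomal protein genes, the genes tested and all RefSeq promoters. The NRF1, ETS and YY1 bars are higher for the mitochondrial ribosomal protein genes (27.03%, 33.8% and 17.6%) than for the other sets, and the TATA box bar (6.76%) is not.

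The genes share more than promoter letters. A protein-coding neighbour on the other strand, starting within 1000 bp upstream, was annotated for 18 of the 77 genes, 23.4%, against 9.94% of 13074 genes tested. Pairs whose 5′ ends overlap, such as Mrpl46 and Mrps11, were not counted. The distance between such starts ran from 26 bp (Mrpl54 and Apba3) to 935 bp (Mrpl41 and Pnpla7), and Mrps18b starts 45 bp from Ppp1r10. The transcripts were short, with a median annotated length of 1316 nt against 3165 nt over the genes tested, and their median GC content of 50.1% was close to the 50.2% of all genes tested. The genes lie on 17 chromosomes, with 10 on chromosome 11, 8 on chromosome 17, 7 on chromosome 6 and none on chromosomes 12, 18, X or Y. In the annotation, 8 of them share exon sequence with another gene on the same strand and 27 with a gene on the other strand, among them Mrpl46 and Mrps11, which overlap each other. The counting of the deposited values is not stated to use strand, so the levels of these genes may include reads of their neighbours.

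The genes were expressed at moderate levels. Their median over the 8 libraries was 20.6 FPKM against 10.4 FPKM for all genes tested, the large subunit genes having a median of 22.01 and the small subunit genes of 16.8. The level ran from 2.67 FPKM for Mrps35 to 95.4 FPKM for Mrpl41, whereas most of the proteins are present in equal number in the ribosome.

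At the top were Mrpl41, Mrps21, Mrpl20 and Mrpl42. Mrpl41, a large subunit protein without a bacterial counterpart, had 62.2, 80.9, 115 and 86.9 FPKM in Normal-11, Normal-21, Normal-22 and Normal-23, and 120.0, 135, 82.3 and 81.8 FPKM in the 5xFAD libraries. Its groups overlapped, and its lowest library was Normal-11. Mrps21, the counterpart of bacterial S21, had 68.6, 103, 94.6 and 83.9 FPKM in the wild type libraries and 83.6, 102, 68.4 and 97.9 FPKM in the 5xFAD libraries. The ranges were nearly the same in both genotypes. Mrpl20, an early binder of the large ribosomal RNA in bacteria, averaged 74.5 ± 17.5 FPKM (SD, n = 4) in wild type and 82.3 ± 11.1 in 5xFAD. Mrpl42, a large subunit protein, averaged 63.6 ± 10.8 and 72.8 ± 11.7 FPKM. None of these differences was larger than the spread between libraries.

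At the bottom were Mrps35, Mrpl19, Mrps25 and Mrps26. Mrps35, a small subunit protein of mitochondria, had 2.86, 2.94, 2.05 and 2.75 FPKM in the wild type libraries and 1.48, 3.90, 2.22 and 3.12 in the 5xFAD libraries. Its lowest and its highest library were both 5xFAD, and it had the largest spread within groups of the whole set. Mrpl19 averaged 3.78 ± 0.36 FPKM (SD, n = 4) in wild type and 3.96 ± 0.36 in 5xFAD. Mrps25 averaged 3.92 ± 0.28 and 4.10 ± 0.47 FPKM, and Mrps26 averaged 4.86 ± 0.55 and 4.65 ± 0.33 FPKM. In all of these the groups overlapped. The next largest spreads within groups were those of Mrps36, Mrpl23 and Mrps27. Mrps27, a small subunit protein with RNA-binding repeats, ran from 8.23 FPKM in Normal-11 to 17.6 FPKM in Normal-22, and its 5xFAD libraries ran from 11.8 to 16.6 FPKM.

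Most of the genes moved together from library to library. In the following, the deviation of a gene is its log2(FPKM + 0.1) in a library minus its mean over the 8 libraries. The median deviation of the 77 genes was -0.29, -0.13, 0.15 and -0.00 in Normal-11, Normal-21, Normal-22 and Normal-23. In the 5xFAD libraries it was 0.15, 0.19, -0.16 and 0.08. Normal-22 was thus level with the highest 5xFAD libraries, and 5xFAD-3 stood with the low wild type libraries. In Normal-11, 5 of the 77 genes were above their own mean and 49 had their lowest level there. In 5xFAD-2, 71 of 77 were above their own mean and 29 had their highest level there. Over all genes tested, the share above their own mean was between 45.7% and 54.4% in every library. The summed level of the 77 genes was 1560, 1788, 2231 and 1957 FPKM in the wild type libraries, and 2174, 2288, 1744 and 2083 FPKM in the 5xFAD libraries. As a share of the protein-coding FPKM this was 0.450%, 0.497%, 0.610% and 0.540% in wild type, with a mean of 0.524% ± 0.0682 (SD, n = 4). In 5xFAD it was 0.623%, 0.585%, 0.545% and 0.601%, with a mean of 0.588% ± 0.0331. The wild type totals hold 9440 to 19630 FPKM of Ttr, a choroid plexus gene listed at 0 in every 5xFAD library, and without Ttr the wild type share was 0.471%, 0.525%, 0.627% and 0.571%, with a mean of 0.548% ± 0.0661. Leaving Ttr out was chosen after seeing the data. The ranges of both the sum and the share overlapped between the genotypes.

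**Figure D2:**
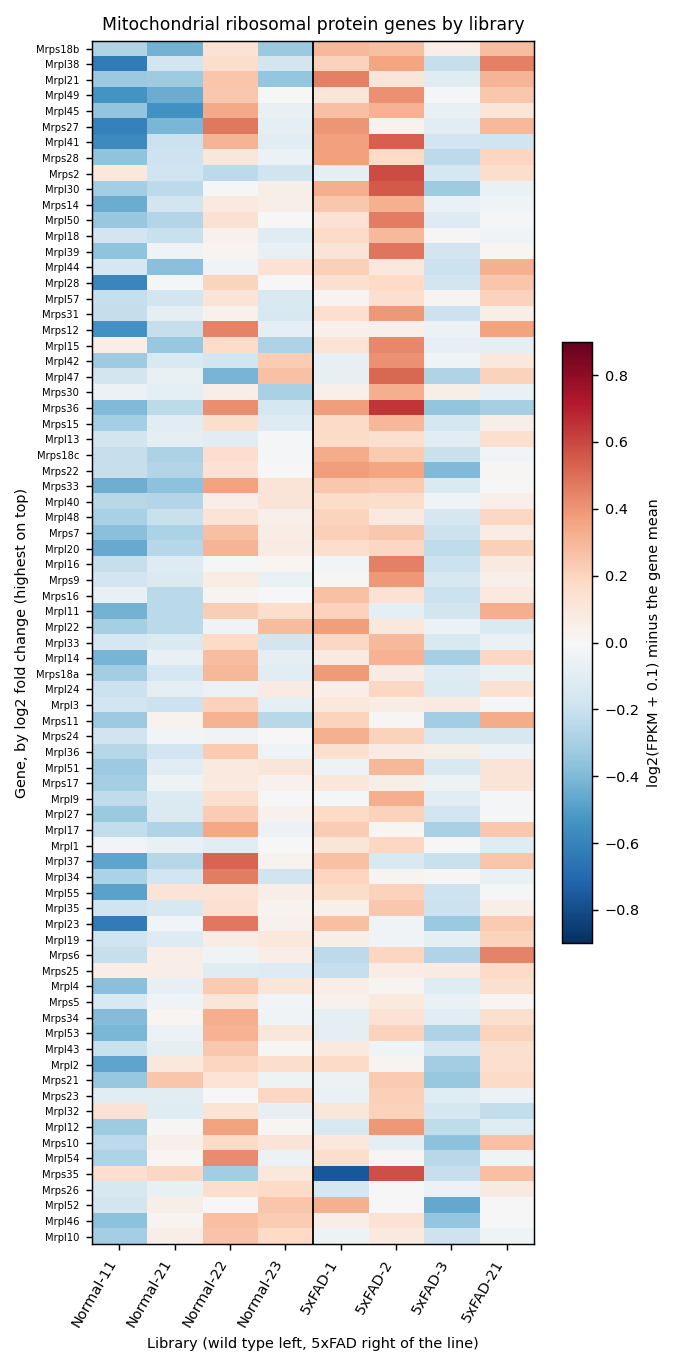
Each row is one of the 77 genes, ordered by its log2 fold change with the highest on top, each column a library, and the colour the log2(FPKM + 0.1) minus the mean of the gene over the 8 libraries. Whole columns lean one way: Normal-11 and 5xFAD-3 are mostly below the mean (median -0.29 and -0.16), and 5xFAD-2, Normal-22 and 5xFAD-1 mostly above it (0.19, 0.15 and 0.15).

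Marker genes of cell types moved between the same libraries. The 14 pinealocyte markers were above 0 in every library, with Tph1, the enzyme of serotonin synthesis, at 613 to 1900 FPKM and Asmt, the last enzyme of melatonin synthesis, at 10.4 to 14.8 FPKM. Their summed level was 1830 to 3723 FPKM in wild type and 2687 to 4209 in 5xFAD, and 10 of 14 had a log2 fold change above 0, 3 of them with an unadjusted p under 0.05. Their median deviation was -0.36, -0.42, 0.42 and -0.07 in the wild type libraries and 0.33, 0.07, -0.13 and 0.07 in the 5xFAD libraries. The 9 osteoblast and osteocyte markers summed to 108 to 2063 FPKM in wild type and to 53.3 to 464 FPKM in 5xFAD, lowest in 5xFAD-21 and Normal-22, and 7 of the 8 tested were below 0. The 8 marrow neutrophil markers summed to 20.1 to 444 FPKM in wild type and 23.2 to 248 FPKM in 5xFAD, and all 6 tested were below 0. Of the bone markers, Dmp1 of osteocytes was at 0 in Normal-22, and no neutrophil marker was at 0 in any library. The 8 brown fat markers summed to 2002 FPKM in 5xFAD-2 and to 40.8 to 114 FPKM in the other libraries. Ucp1, the uncoupling protein that defines brown fat, was 516 FPKM in 5xFAD-2, at most 0.193 FPKM elsewhere and at 0 in 5xFAD-1. Adipoq, Plin1 and Elovl3, other fat cell genes, were also at 0 in some libraries and highest in 5xFAD-2. The 7 erythroid markers summed to 695 to 5581 FPKM in wild type and 913 to 4819 FPKM in 5xFAD, and 6 of 7 were below 0. Their sums were highest in Normal-22 and 5xFAD-2, also the highest for the mitochondrial ribosomal proteins in their genotypes. The other libraries did not all follow. In 5xFAD-1 the erythroid sum was the lowest of its genotype (913 FPKM), while the ribosomal proteins summed to 2174 FPKM, above 5xFAD-3 and 5xFAD-21. Of the 6 choroid plexus markers, all had a log2 fold change below 0. Ttr encodes the thyroid hormone carrier transthyretin, and whether its 0 in every 5xFAD library is a failed estimate was not tested. The other 5 were above 0 FPKM in every library, all being lowest in 5xFAD-1 and highest in 5xFAD-21. Folr1, for example, had 13.6, 149, 122 and 212.5 FPKM in the 5xFAD libraries and 87.0 to 163 FPKM in wild type. All 7 markers of microglia and macrophages were below 0, with sums of 82.0 to 177 FPKM in wild type and 73.3 to 148 FPKM in 5xFAD. Below 0 were also 6 of 7 vessel wall markers (54.0 to 183 and 43.2 to 126 FPKM), 5 of 6 meningeal fibroblast markers (392 to 2139 and 335 to 850 FPKM), the 4 tested of dividing cells (3.22 to 18.1 and 2.86 to 5.55 FPKM) and 2 of the 3 tested of skeletal muscle (2.61 to 11.6 and 2.05 to 10.4 FPKM). Of the astrocyte and oligodendrocyte markers, 5 of the 6 tested were above 0 (112 to 124 and 122 to 191 FPKM). Among them 1 gene, Aldoc, was higher at an unadjusted p under 0.05 (limma). The lists of choroid plexus, microglia and macrophages, meningeal fibroblasts and dividing cells each held 1 gene that was lower at that limit, against 3.35% of all genes tested. The remaining cell type lists held none. The part of these cell types in the levels of the mitochondrial ribosomal protein genes was not tested. In bulk samples, fewer cells of a type and less RNA per cell cannot be told apart.

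One library went against its description. Xist, the RNA of the inactive X chromosome of female cells, was 13.3 FPKM in Normal-22 and at most 0.0404 FPKM in the other 7 libraries, whereas the mice are described as male. Normal-22 also lay apart from the other wild type libraries on the first principal component of all genes tested, at 41.7 against -51.2 to -13.2, next to 5xFAD-21 at 39.6. Normal-11 and the 5xFAD libraries other than 5xFAD-21 had a low share of unread bases in the run table of the study and the other 4 a high share. The GC rate of the reads in the same table parts the genotypes fully, so that it and the genotype cannot be told apart. Results are therefore given with and without Normal-22 and 5xFAD-2, and within these classes of libraries.

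**Figure D3:**
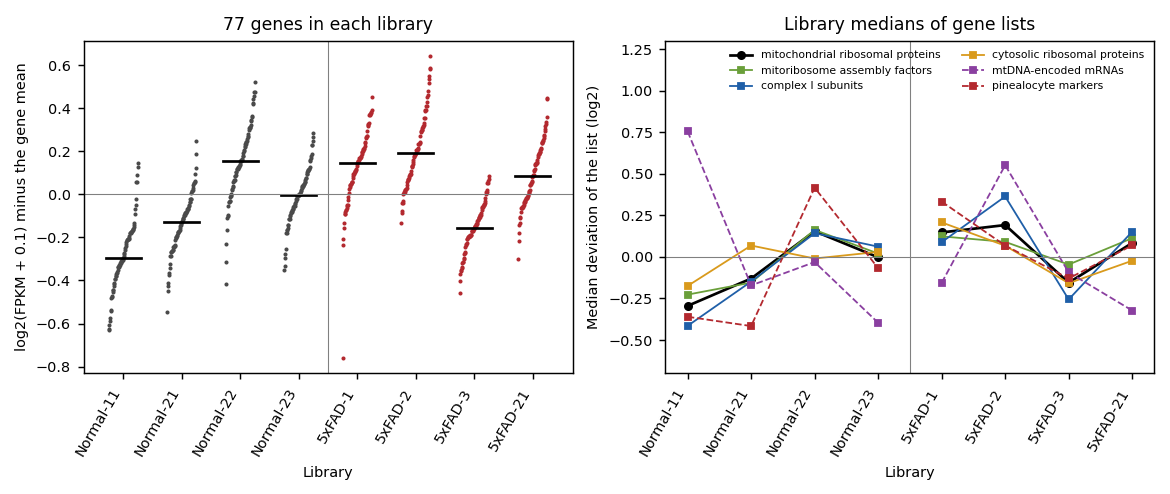
On the left, each point is one of the 77 genes in a library, as log2(FPKM + 0.1) minus the gene mean, sorted within the library, with a bar at the median. On the right, the library medians of the same quantity are drawn for the 77 genes and 5 other gene lists, with lines joining libraries of one genotype only to guide the eye. The genes lie lowest in Normal-11 (median -0.29) and highest in 5xFAD-2 (0.19), and complex I subunits (-0.41 and 0.36) are lowest and highest in the same libraries.

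Comparing 5xFAD with wild type asked whether the amyloid model differs in the RNAs of the mitochondrial translation machinery. Most of these genes had a slightly higher level in 5xFAD, and none passed the adjusted test. The log2 fold change on the log2(FPKM + 0.1) scale was above 0 for 67 of the 77 genes, against 48.7% of all genes tested, and below 0 for 10. Its median was 0.14, which is a fold of 1.10, against -0.01 over all genes tested. It ran from -0.09 for Mrpl10 to 0.45 for Mrps18b. Because the genes moved together between libraries, they are not separate observations. The library medians of their deviations averaged -0.07 ± 0.19 in wild type and 0.07 ± 0.15 in 5xFAD (SD, n = 4). In limma with Benjamini-Hochberg adjustment over all 13094 genes, none of the 77 genes passed an adjusted p of 0.05, and the smallest adjusted p was 0.559. Over all genes tested, 5 passed, 0.0382%. At an unadjusted p under 0.05, 1 of the 77 was higher in 5xFAD, against 4.6% of all genes tested, and 0 were lower, against 3.35%. The 4 values of 5xFAD all lay above those of wild type in 0 genes of the set, against 2.11% of all genes, and all below in 0, against 2.23%. The median half-width of the 95% interval of a fold change was 0.36 (log2), and the upper ends of the intervals reached at most 0.85, below a doubling.

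**Figure D4:**
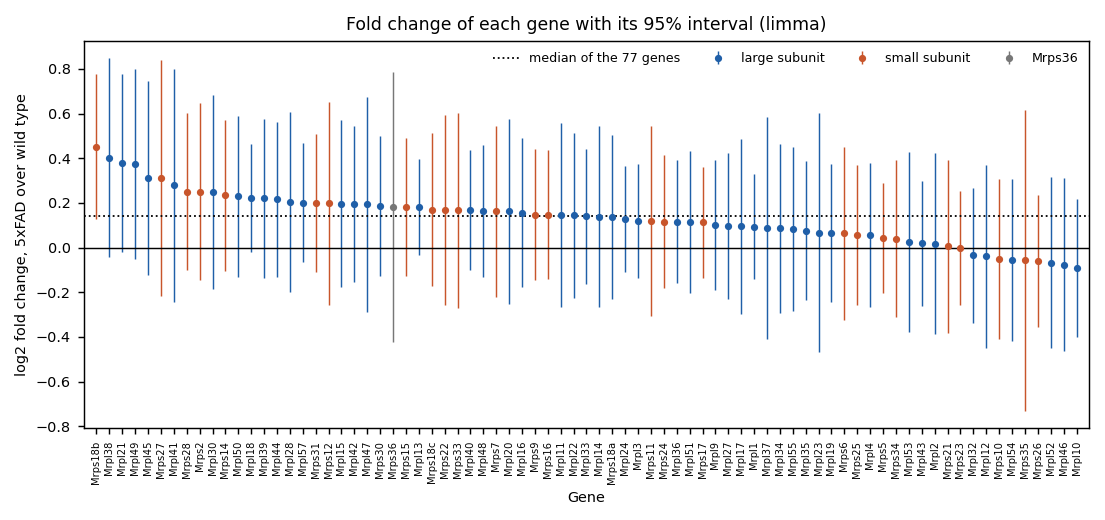
Points give the log2 fold change of 5xFAD over wild type for each gene with its 95% interval from limma, coloured by subunit, and the dotted line marks the median of 0.14. Most points lie above 0, and the interval of Mrps18b alone does not reach 0.

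The size of the median depended on which libraries were included. Without Normal-22 the median was 0.22 (70 of 77 above 0), 10 genes were higher at an unadjusted p under 0.05, against 9.61% of all genes in that fit, and the smallest adjusted p was 0.0815. Without Normal-11 the median was 0.06 (59 of 77 above 0). Without 5xFAD-2, the library with brown fat markers, it was 0.09 (64 of 77 above 0), and without 5xFAD-3 it was 0.21, with 7 genes higher at an unadjusted p under 0.05, against 4.79% of all genes in that fit. With array weights, which let the libraries count unequally, it was 0.08 (60 of 77 above 0). Within the libraries of a low share of unread bases, 1 wild type against 3 5xFAD, it was 0.33 (74 of 77 above 0). Within those of a high share, 3 against 1, it was 0.07 (55 of 77 above 0). With a single library on one side these values carry no test.

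Mrps18b had the largest fold change and the smallest p. Its gene (ENSMUSG00000024436.16 in the table) spans chr17:35910379-35916389 on the minus strand of GRCm38 and encodes one of the Mrps18 proteins of the small subunit, all related to bacterial S18. Its level was 5.97, 5.35, 7.91 and 5.72 FPKM in Normal-11, Normal-21, Normal-22 and Normal-23. In the 5xFAD libraries it was 8.88, 8.75, 7.55 and 8.76 FPKM. The groups overlapped in a single pair, Normal-22 being above 5xFAD-3. The means were 6.24 ± 1.14 FPKM (SD, n = 4) in wild type and 8.49 ± 0.63 in 5xFAD, a log2 fold change of 0.45 with a standard error of 0.14. The limma p was 0.0121 before and 0.559 after Benjamini-Hochberg adjustment. Leaving out each library in turn gave log2 fold changes of 0.39 to 0.57.

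The other paralogs of the name were more abundant and differed less. Mrps18a, whose protein sits in the large subunit, had 38.4, 42.8, 58.8 and 44.5 FPKM in the wild type libraries and 62.2, 50.2, 44.0 and 45.7 in the 5xFAD libraries, for a log2 fold change of 0.14 (standard error, SE, 0.16). Mrps18c, which takes the place of bacterial S18 in the small subunit, had 30.1, 28.4, 38.7 and 34.5 FPKM and 43.7, 40.9, 30.2 and 34.1 FPKM, for a log2 fold change of 0.17 (SE 0.15). In both, 2 wild type libraries lay below every 5xFAD value and the other 2, one of them Normal-22, within the 5xFAD range. Of the summed FPKM of the paralogs, Mrps18a made up 50.3% to 55.9% over the 8 libraries, Mrps18c 36.7% to 40.9% and Mrps18b 6.75% to 9.90%. The share of Mrps18b was 8.01%, 6.99%, 7.51% and 6.75% in the wild type libraries and 7.74%, 8.77%, 9.24% and 9.90% in the 5xFAD libraries. Its lowest 5xFAD share was below its highest wild type share.

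**Figure D5:**
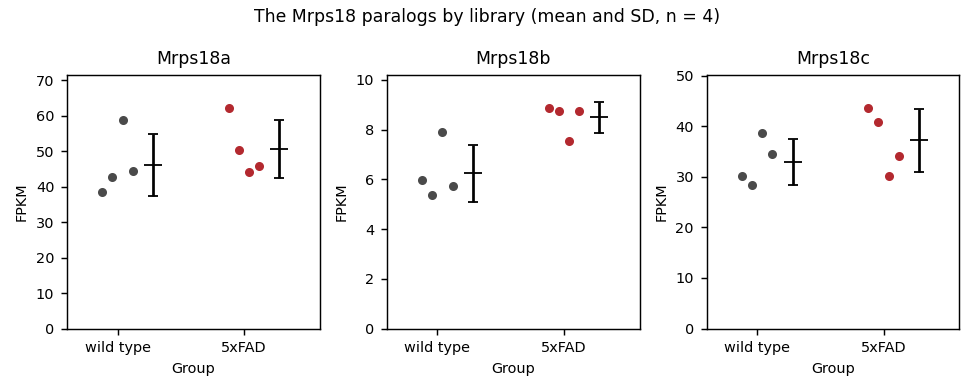
Points are the FPKM of Mrps18a, Mrps18b and Mrps18c in each library of the 2 groups (n = 4), with the mean and SD beside them and axes from 0. Mrps18b is lower than its paralogs throughout (5.35 to 8.88 FPKM), and only one of its wild type points, Normal-22 at 7.91, reaches above the lowest 5xFAD point at 7.55.

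The next smallest p-values, in genes picked after their values were seen, belonged to large subunit genes. Mrpl21, the counterpart of bacterial L21, had a log2 fold change of 0.38 (adjusted p = 0.629, limma). Its level was 22.7, 22.9, 34.1 and 22.5 FPKM in the wild type libraries and 39.3, 31.0, 26.6 and 35.4 in the 5xFAD libraries. As for Mrps18b, Normal-22 was the wild type library inside the 5xFAD range. Mrpl38, of the central protuberance, had 0.40 (adjusted p = 0.636, limma). Mrpl49 had 0.37 (adjusted p = 0.641), and Mrpl18, which binds the structural RNA of the central protuberance, had 0.22 (adjusted p = 0.635). None of them passed the unadjusted test.

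The subunits had similar small medians. The median log2 fold change was 0.14 for the large subunit genes, 44 of 50 being above 0, and 0.15 for the small subunit genes, 22 of 26 being above 0. The ratio of the median FPKM of large to small subunit genes was 1.12 in Normal-11, 1.33, 1.44 and 1.31 in the other wild type libraries and 1.25 to 1.32 in the 5xFAD libraries. Genes with a bacterial counterpart had a median of 0.13 (41 of 45 above 0), and genes specific to mitochondria one of 0.17 (25 of 31 above 0).

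Within the large subunit, the groups by site were small. The 7 genes of the tunnel exit, where the growing chain leaves the ribosome, had log2 fold changes from 0.07 to 0.31 with a median of 0.14. Among them, Mrpl45, which tethers the ribosome to the inner membrane, had 15.7, 13.7, 25.4 and 19.1 FPKM in the wild type libraries and 24.2, 24.9, 19.2 and 21.6 FPKM in the 5xFAD libraries, for a log2 fold change of 0.31 (SE 0.19). The wild type values spanned the whole 5xFAD range. Mrpl44 and Mrpl39, which resemble a ribonuclease and a tRNA synthetase, had 0.22 (SE 0.15) and 0.22 (SE 0.16), and Mrpl23 had 0.07 (SE 0.24). The 4 genes around the peptidyl transferase centre, the site of peptide bond formation, had a median of 0.09, with 0.16 for Mrpl16, 0.12 for Mrpl3 and 0.06 for Mrpl4. The 6 genes of the central protuberance, which contacts the small subunit, had a median of 0.17 with 5 above 0.

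The stalk, which recruits the translation factors, was the site with a median below 0. Mrpl10, the stalk base protein that carries the L12 copies, had 18.6, 23.8, 27.5 and 26.0 FPKM in the wild type libraries and 22.2, 24.4, 20.2 and 22.4 FPKM in the 5xFAD libraries. Its wild type values spanned the 5xFAD values, and its log2 fold change was -0.09 (SE 0.14). Mrpl12, the L12 protein itself, also known to bind the mitochondrial RNA polymerase, averaged 20.9 ± 4.07 FPKM (SD, n = 4) in wild type and 20.4 ± 4.26 in 5xFAD, for a log2 fold change of -0.04 (SE 0.18). Mrpl11, next to it at the stalk base, had 0.15 (SE 0.18). The sign for Mrpl10 and Mrpl12 turned when the class of unread bases was added to the model (0.028 and 0.045), and none of the differences passed the test.

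Within the small subunit, the 4 genes of the decoding centre and the mRNA path had a median of 0.16, all above 0. Mrps12, whose bacterial counterpart S12 monitors codon pairing, had 30.7, 38.8, 61.1 and 42.3 FPKM in the wild type libraries and 46.3, 46.3, 43.2 and 57.6 FPKM in the 5xFAD libraries, for a log2 fold change of 0.20 (SE 0.20). Normal-22 held the highest level of all libraries and Normal-11 the lowest. Mrps2 had 0.25 (SE 0.17) and was highest in 5xFAD-2 at 14.3 FPKM, against 8.05 to 10.6 FPKM in the other libraries. Mrps24, the counterpart of bacterial S3 at the mRNA entrance, had 0.12 (SE 0.13), and the 4 genes of the head had a median of 0.16 with 3 above 0.

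Mrps30 and Mrps36 carry names that do not match the place of their proteins. Mrps30, a large subunit protein, averaged 4.57 ± 0.46 FPKM (SD, n = 4) in wild type and 5.22 ± 0.64 in 5xFAD, for a log2 fold change of 0.19 (SE 0.14). Mrps36, a component of the α-ketoglutarate dehydrogenase complex of the citric acid cycle, had 9.92, 11.1, 17.6 and 11.7 FPKM in the wild type libraries and 16.97, 20.5, 10.2 and 10.6 FPKM in the 5xFAD libraries, for a log2 fold change of 0.18 (SE 0.27). Its 5xFAD libraries fell into a high and a low pair.

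The partner genes that start head to head had lower values than the genes of the set. Of the 17 neighbours tested that start head to head with a gene of the set, without overlapping it, 7 had a log2 fold change above 0. Over all genes tested this share was 48.7%. The median of the neighbours was -0.10, against -0.01 over all genes tested. The 18 genes of the set in these pairs had a median of 0.17, with 15 above 0. Helq, a DNA helicase that starts 29 bp from Mrps18c, had -0.41 beside 0.17 for Mrps18c. It was the only partner with an unadjusted p under 0.05 (limma), where 4.6% of all genes tested were higher and 3.35% lower. Ppp1r10, a phosphatase subunit, had 0.07 beside 0.45 for Mrps18b. The difference between partners and members was not tested. Genes with and without a motif had close medians, with a log2 fold change of 0.15 with and 0.14 without an NRF1 match, 0.14 and 0.15 for ETS, and 0.12 and 0.15 for YY1.

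Other genes of mitochondrial translation were compared in the same fit, and none of their lists held a gene with an adjusted p under 0.05. The 6 subunits of the mitochondrial ribosome with other names had a median log2 fold change of 0.20, 4 being above 0, led by Chchd1 (0.28), Ptcd3 (0.24) and Dap3 (0.24). Leaving out each library in turn gave 0.07 (without Normal-11) to 0.28 (without Normal-22). The 28 assembly factors had a median of 0.11 with 22 above 0, and 0.05 (without Normal-11) to 0.16 (without Normal-22) with a library left out, among them Tfb1m, the methyltransferase of the small ribosomal RNA, at 0.56 (adjusted p = 0.629, limma). The 14 translation factors had a median of 0.06 with 9 above 0, among them Mrrf, the ribosome recycling factor, at 0.33 (adjusted p by limma 0.636), and Guf1 at -0.23. The 16 genes of mitochondrial DNA transcription and its regulators had a median of 0.04 with 9 above 0, and Tfam, which packages mitochondrial DNA and starts its transcription, had 0.30. The 20 genes that make mitochondrial aminoacyl-tRNAs had a median of -0.01 with 10 above 0. They are synthetases together with the amidotransferase subunits Gatb, Gatc and Qrsl1. One of these, Lars2, which charges leucine tRNA, had 53.4, 37.3, 57.0 and 29.0 FPKM in the wild type libraries and 10.4, 7.42, 11.2 and 32.8 FPKM in the 5xFAD libraries. Only 5xFAD-21 lay in the wild type range, and the log2 fold change was -1.71 (adjusted p = 0.525, limma; unadjusted p under 0.05).

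Genes that use or parallel the mitochondrial ribosome gave the following. The 13 mRNAs of the mitochondrial genome, its templates, had a median log2 fold change of 0.01 with 7 above 0. Of these 7, all but mt-Cytb (0.01) had low FPKM values. The highest was mt-Atp8 with 14.2 ± 10.2 FPKM (SD, n = 4) in wild type and 17.8 ± 2.29 in 5xFAD. Whether these low values give the real level of the mRNAs was not tested. The 6 below 0 averaged 369 FPKM or more in wild type. The median was -0.15 at a minimum mean of 5 FPKM and -0.39 with the class of unread bases in the model, and leaving out each library in turn gave -0.25 to 0.23, so its sign was not stable. Their summed level was highest in Normal-11 (36494 FPKM) and 5xFAD-2 (35805 FPKM) and 19630 to 24882 FPKM in the other libraries, so Normal-11, lowest for the ribosomal proteins, was highest for these mRNAs. The 37 nuclear genes of complex I had a median of 0.18 with 35 above 0, and the 15 of complex IV one of 0.20 with 13 above 0. The complex IV list holds Cox8b, also a brown fat marker, at 271 FPKM in 5xFAD-2 and 8.76 to 69.3 FPKM in the other libraries. Leaving out each library in turn gave 0.06 (without Normal-11) to 0.27 (without 5xFAD-3) for complex I and 0.06 (without 5xFAD-2) to 0.34 (without 5xFAD-3) for complex IV, and array weights gave 0.06 and 0.08. The median deviation of complex I was -0.41, -0.15, 0.14 and 0.06 in the wild type libraries and 0.09, 0.36, -0.26 and 0.15 in the 5xFAD libraries, the same signs as for the mitochondrial ribosomal proteins except in Normal-23. The 79 cytosolic ribosomal protein genes tested had a median of 0.03 with 54 above 0.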

How the data were processed

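Pineal RNA was sequenced from 4 wild type and 4 5xFAD libraries after removal of ribosomal RNA with a stranded total RNA kit. The authors trimmed reads with Trimmomatic, aligned them with STAR to GRCm38.p6 (mm10) and deposited FPKM values per gene and library, made with Cuffnorm on GENCODE release M17. Versions, strand and library normalization settings are not given in the sources used here. The table holds no counts per gene, so no counting interval is given. Total reads per library are listed in the run table of the study, with the most for Normal-11, and were not used here. A column of means over the libraries was not used.

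Protein-coding genes with a mean of at least 1 FPKM were fitted with limma 3.58.1 (R 4.3.3) on log2(FPKM + 0.1), 5xFAD minus wild type, with eBayes and a trend on the mean. A pseudocount understates the change of low genes. The study intersected an unmoderated test on FPKM with a count-based test on Salmon estimates. The latter were not used here, and a moderated test on FPKM was run because of 4 libraries a group. Each library is a pool of glands, so p-values measure the spread between pools. The script was tested on simulated data. Coordinates, lengths and overlaps came from GENCODE M21, a later release on the same genome (GRCm38), in which 53616 of 53710 rows were found. Promoters came from RefSeq (GRCm38.p6).

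The members and all gene lists were chosen with earlier results of these data known, so medians and counts over them are descriptions without a test. Named genes were those past an unadjusted p of 0.05, the 4 highest and 4 lowest by mean, the 4 with the largest spread within groups, the Mrps18 paralogs, Mrps30, Mrps36, up to 3 examples of each site, and up to 3 genes of each other list by p. Printed promoters were those of the genes with the smallest p that hold a motif, at most 4. Alternatives were other pseudocounts, filters and scalings (one without Ttr, added after seeing the data). Terms for unread bases or for the order of the libraries within each genotype were also tried. Others were array weights, trends on GC content or length, untransformed values, a fit with long noncoding RNAs and left-out libraries.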

Additional observations from a re-analysis of the deposited data

Results flagged for a closer look

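Among 98 groups of 4 libraries checked for a library far from the others, by the gap to its nearest neighbour over the range of the group (the 95% limit of Dixon), 9 held one, and chance alone flags about 1 in 20 groups. In wild type, Normal-11 stood apart with 10.1 FPKM for Mrps2, the highest of its group, and with 14.9 FPKM for Mrps24, the lowest. In 5xFAD, 5xFAD-3 stood apart as the lowest with 65.7 FPKM for Mrpl20 and 7.55 FPKM for Mrps18b, and 5xFAD-2 as the highest with 26.7 FPKM for Mrpl12. The other outlying libraries were found in summed levels of other lists. Normal-22 was highest in the genes that make mitochondrial aminoacyl-tRNAs (228 FPKM) and Normal-23 in the astrocyte and oligodendrocyte markers (124 FPKM). In 5xFAD-2, the sum was highest for brown fat markers (2002 FPKM) and for the mRNAs of the mitochondrial genome (35805 FPKM).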

How the results depend on the processing

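Under 28 other settings, the median log2 fold change of the 77 genes stayed above 0, and no setting with a test gave a gene an adjusted p under 0.05. Leaving out each library in turn gave medians of 0.06 to 0.22 for all genes, 0.05 to 0.21 for the large and 0.07 to 0.24 for the small subunit, 1 to 10 genes higher at an unadjusted p under 0.05 (10 without Normal-22, where all genes gave 9.61%, 7 without 5xFAD-3, 4.79%) and 0 to 8 genes with groups apart (8 without Normal-22, 9.16%, and 6 without 5xFAD-3, 4.62%). In the libraries of few unread bases the medians were 0.33, 0.35 and 0.31. The count higher at an unadjusted p under 0.05, with the share of all genes in the same fit, was 6 (6.77%) with the same protein-coding total, 5 (5.32%) with unread bases as a term, 4 (7.78%) with array weights, 3 (4.52%) with the GC trend removed, 2 (4.09%) on untransformed FPKM and 8 (8.12%) without Normal-22 and 5xFAD-21 together. All 5xFAD values lay above wild type for 3 genes (3.99%) with the same total, 1 (2.12%) with the GC trend and 2 (2.36%) with the length trend removed, and 11 (11.2%) without these libraries together. With the same total but Ttr left out, an alternative chosen after seeing the data, the median was 0.11, 1 gene (4.04%) was higher at an unadjusted p under 0.05 and 1 (2.42%) had groups apart. The causes were not tested.

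The sign of single genes turned under some settings. Mrps21 was -0.028 with the same total without Ttr, -0.10 with quantile normalization, -0.10 with array weights, -0.077 with the length trend removed and -0.0081 without Normal-22 and 5xFAD-21. Mrps26 was 0.014 with quantile normalization, 0.035 with the unread bases term and 0.074 in libraries of few unread bases. Mrps35 was 0.0022 with that term, 0.015 untransformed and 0.28 in libraries of many unread bases. Mrpl10 was 0.028 with the term and 0.26 in libraries of few unread bases, where Mrpl12 was 0.33. Mrpl12 was 0.045 with the term, 0.00288 with the GC trend removed and 0.11 without both libraries. Mrpl23 was -0.021 with array weights and -0.00984 with the length trend removed, where Mrpl4 was -0.012. Mrps25 was -0.023 without both libraries and -0.081 in libraries of few unread bases. In libraries of many unread bases Mrpl41 was -0.19, Mrps36 -0.31, Mrps18a -0.076 and Mrps24 -0.12. With one library left out, Mrps21 ran from -0.11 to 0.12, Mrps35 from -0.26 to 0.19, Mrps36 from -0.0013 to 0.35, Mrpl23 from -0.13 to 0.24, Mrpl12 from -0.17 to 0.078 and Mrpl4 from -0.062 to 0.14.

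Libraries were also numbered by their order within each genotype, which is not the number in their labels and rests on no known pairing. Deviations of libraries with the same order number correlated at -0.04, 0.21, -0.34 and 0.24. The value for Normal-21 and 5xFAD-21, which share the number of their labels, is not given. With the order number as a block, the median was 0.14. In that fit 1 gene, Mrps18b, had an unadjusted p under 0.05 (adjusted p in limma 0.843).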
